A study of Mus musculus with 4 samples.

Results

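Glycolysis and its hypoxia-linked regulators were examined as a set of 33 genes in liver macrophages: 17 glycolytic enzymes, 3 glucose and lactate transporters, 3 regulators of flux, 2 hypoxia-inducible factor subunits with 2 of their oxygen-sensing hydroxylases, and 6 hypoxia-inducible targets. Members were chosen by gene symbol, and all 33 were found among the 29247 genes of the count table and passed the filter on low counts that left 18715 genes for testing. The data are RNA sequencing of flow-sorted liver macrophages of C57BL6J mice aged 8 weeks. In the APAP group, 3 libraries of Cxcr4+ macrophages were taken 72 h after intraperitoneal acetaminophen (APAP, an analgesic whose overdose injures the liver) at 300 mg/kg in saline. The comparison group is 1 library of control macrophages, for which the labels give neither a Cxcr4 gate nor an injection. Drug and sort therefore cannot be told apart. Nothing in the labels says whether the APAP libraries came from separate mice, so p-values measure only how far these libraries spread, which may be technical. The APAP libraries are called the first, the second and the third in the order of their columns.

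Glycolysis splits glucose into pyruvate in the cytosol. Hexokinase traps glucose, phosphofructokinase commits it, and lactate dehydrogenase regenerates the cofactor that keeps the pathway running when mitochondria do not take up the pyruvate. Hypoxia-inducible factors (HIF) are transcription factors whose alpha subunits are hydroxylated by EGLN enzymes and destroyed when oxygen is present; when oxygen is short they switch on genes of glucose uptake, glycolysis and mitophagy. In macrophages, high glycolysis is known mainly from inflammatory activation.

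The APAP libraries held 48282283, 52043418 and 56702837 counts, the control 49950909. Levels are given as counts-per-million (CPM) after scaling by the trimmed mean of M-values (TMM). Cxcr4, the gene of the sorting marker, rose from 41.3 CPM to 84.5, 132 and 101 CPM (log2 fold change 1.36, adjusted p = 0.00978 by the test described below). The macrophage receptor Csf1r was at 4257 to 5848 CPM after APAP against 6881 CPM, and Adgre1, which encodes F4/80, at 1196 to 1567 CPM against 2059 CPM. The marker counts that follow stand beside 25.4% of all genes tested called higher and 18.9% called lower. Of 10 macrophage markers, 6 were lower and 1 higher (summed 20247 to 25467 CPM against 41242.5 CPM). Of that sum, Clec4f held 2785 to 4670 CPM after APAP and 13080 CPM in the control, and C1qa 1600 to 2326 and 9295 CPM. Both genes, picked after their values were seen, made up most of the difference in the sum. Lyz2 (7972 to 8812 against 6747 CPM), Mertk and Itgam instead stood above the control in every APAP library. For lists of other cells, the control sum lay outside the range of the APAP sums, except for natural killer cells. Hepatocyte markers were lower for 10 of 13 genes and none was at 0 (summed 305 to 565 CPM after APAP, 1151 CPM in the control). B cell markers were higher for 9 of 10 genes (381 to 567 against 139 CPM), T cell markers for 8 of 10 (113 to 144 against 51.6 CPM) and plasmacytoid dendritic cell markers for 7 of 8 (184 to 213 against 94.2 CPM, with Siglech at 0 in the control). Neutrophil markers were higher for 6 of 11 tested genes (398, 308 and 215 CPM against 157 CPM), and Ly6g, Camp, Ngp and Ltf were at 0 in the control. Endothelial markers were lower for 5 of 10 genes and higher for 1 (964 to 1372 against 1995 CPM). Cdh5 held 1268 CPM of that control sum and 474, 692 and 748 CPM of the APAP sums. Kdr was the higher gene, and Stab2, Lyve1, Tek and Eng gave no call. Natural killer cell markers were higher for 4 of 8 genes and lower for 1 (57.4 to 71.9 against 66.5 CPM). The lower gene, Klrk1, held 53.3 CPM of that control sum and 23.9, 32.3 and 28.0 CPM of the APAP sums. For the other 7 genes the control lay below every APAP library. Erythroid markers summed to 47.6, 199.8 and 61.8 CPM against 238 CPM with 1 of 8 tested genes higher, and platelet markers to 32.4 to 35.7 against 42.8 CPM with 2 of 6 tested genes higher and 1 lower; Klf1, Gp6 and Treml1 were at 0 in the control. Tested genes at 0 in the control, with Siglech, Ngp and Ltf among those called, passed the count filter through the APAP libraries alone. The part of these cells in the results below was not tested. In bulk samples fewer cells of a type and less RNA per cell cannot be told apart.

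The set did not move as a block in APAP Cxcr4+ macrophages. With edgeR quasi-likelihood tests, called at 0.05 after Benjamini-Hochberg adjustment over all genes, 8 of the 33 genes were higher and 6 lower, against 25.4% and 18.9% of all genes tested. Together 14 genes, or 42.4%, passed, which is close to the 44.3% of all genes tested. The median log2 fold change was 0.07 over the 33 genes and 0.08 over all tested genes. The 8 that rose were Hk2, Eno2, Slc2a3, Pfkfb3, Pfkfb4, Pdk1, Epas1 and Ndrg1. The 6 that fell were Hk3, Tpi1, Eno1, Ldha, Egln1 and P4ha1. The control lay below all APAP libraries for 15 genes (45.7% of all genes tested), above them for 13 (39.2%) and among them for 5. Over all genes tested it lay outside the APAP range for 84.8%. Eno2, without reads in the control, passed the count filter through the APAP libraries alone. No member passed a test against a 2-fold change (glmTreat in edgeR, 0 of 33, with Eno2 and Ndrg1 at an unadjusted p under 0.05). That test called 7.37% of all genes, 5.87% as higher and 1.5% as lower.

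**Figure D1:**
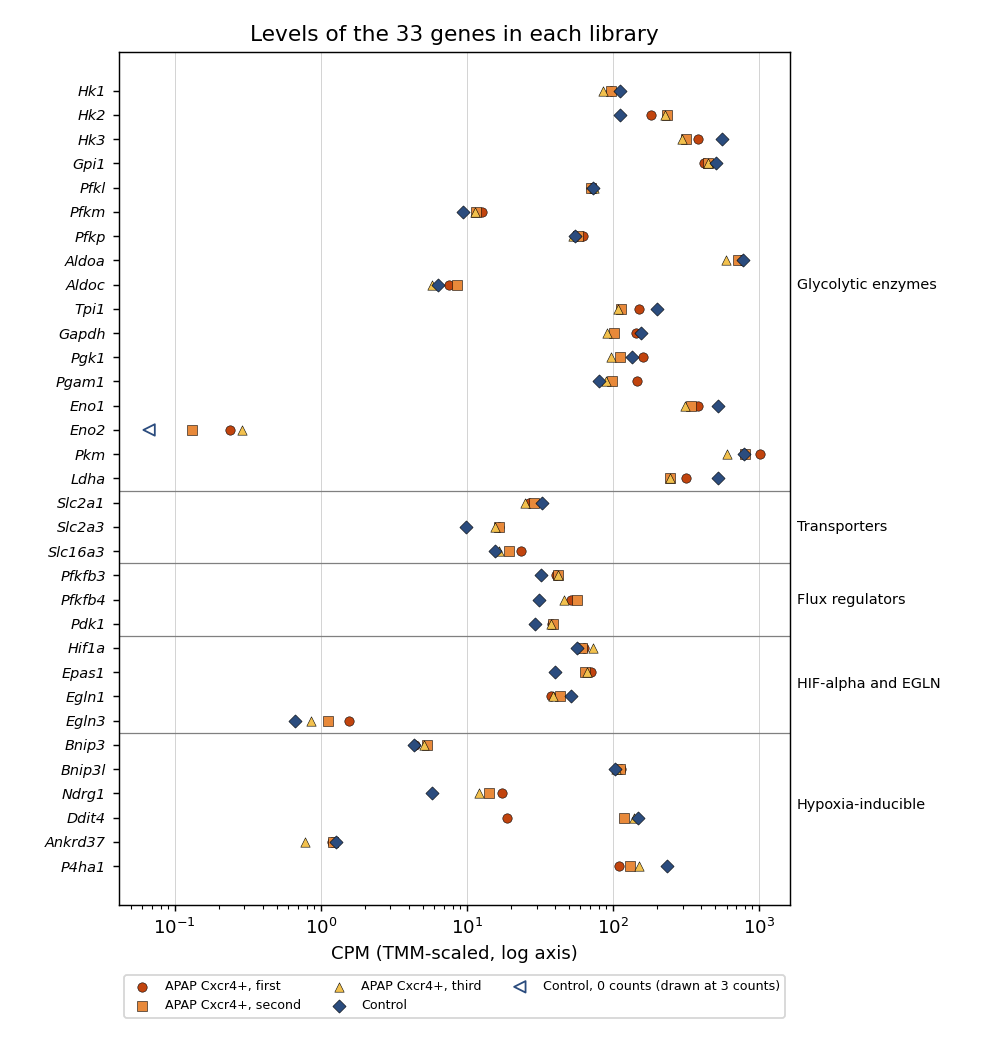
Level of each of the 33 genes in every library, in TMM-scaled CPM on a log axis, grouped by role. Symbols mark the 3 APAP Cxcr4+ libraries and the control, and the open triangle marks Eno2, which had 0 counts in the control. Aldoa, Pkm, Eno1, Ldha, Hk3 and Gpi1 are the most abundant, and Eno2, Egln3 and Ankrd37 lie near or below 1 CPM.

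Fold changes also followed transcript length, which bears on every call here. Across the 18644 tested genes with a known length, which are not independent replicates, Spearman's rho between length and the APAP to control fold change was 0.27, and between pairs of APAP libraries it was -0.05 to -0.02. The 8 genes that rose had a median transcript length of 4296.5 bases, and the 6 that fell one of 2623 bases, against 2455 bases for all genes tested. After the fold changes were corrected for their trend over length and GC content, 4 genes rose (Eno2, Slc2a3, Pfkfb4 and Ndrg1) and 7 fell (Hk1, Hk3, Eno1, Ldha, Slc2a1, Egln1 and P4ha1), against 17.6% and 16.3% of all genes and 33.9% in either direction. Hk2, Pfkfb3, Pdk1 and Epas1, with transcripts of 4634 to 5516 bases, and Tpi1, with 1607 bases, lost their calls.

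Leaving out 1 APAP library also moved the count. Without the second, 7 of the 14 calls were lost, those of Hk3, Tpi1, Eno1, Eno2, Pfkfb3, Pdk1 and Egln1 (adjusted p = 0.0525 to 0.0988), and 27.3% of all genes were called, 16.2% as higher and 11% as lower. Without the first, 16 members (7 higher, 9 lower) were called, with 50.8% of all genes called, 28.1% as higher and 22.7% as lower. Without the third, 13 members (8 higher, 5 lower) were called, with 45.2% of all genes called, 26.1% as higher and 19.2% as lower.

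**Figure D2:**
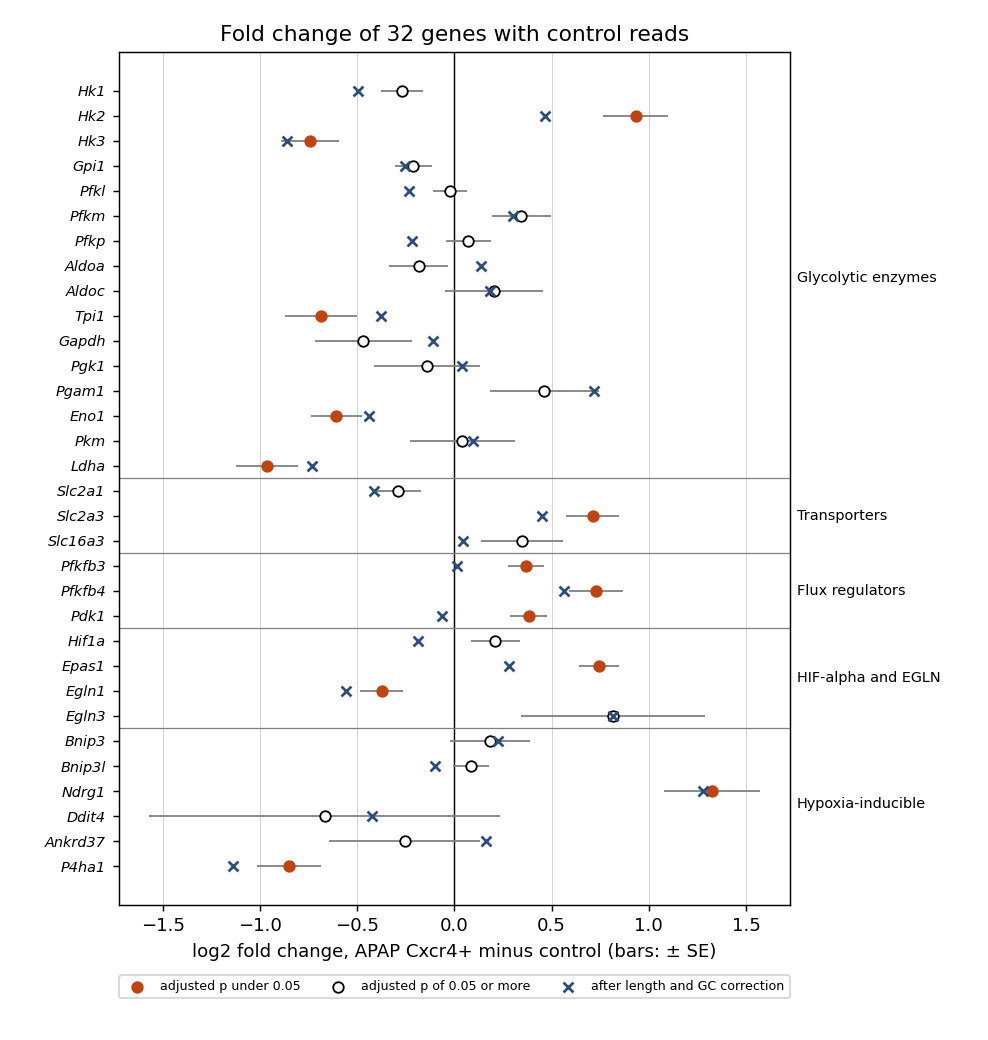
Log2 fold change of the 32 genes with reads in the control, APAP Cxcr4+ minus control, with bars of 1 SE. Filled circles passed the test and open circles did not; crosses give the value after the length and GC correction. The crosses of Pfkfb3 (0.011) and Pdk1 (-0.064) fall on the zero line, while those of Ndrg1 (1.28) and Ldha (-0.73) stay away from it.

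Upstream sequences were read from RefSeq windows on GRCm38.p6, matched by symbol, for 29 of the 33 genes; Slc2a3, Epas1, Bnip3l and Ndrg1 had no entry. The 250 bases before each start were searched for the HIF recognition core in its 2 forms, ACGTG and GCGTG, on both strands. CACGTG was counted once, and where CACGCGTG occurs the 2 strands' matches share bases. The word ACGTG was found before at least 1 start of 18 of the 29 genes (62.1%), and in 16.6% of all windows of this length and before 18.5% of all genes with a window and 23.8% of those that were tested here. GCGTG was found for 18 of 29 genes (62.1%), and in 28.2% of all windows, for 30.9% of all genes and for 46.4% of those tested. Both words hold a CG pair, and base composition was not matched. Nor was the number of starts, with 42 windows for the 29 genes and 14902 for the 11727 tested. Members were picked partly as hypoxia-inducible, so these shares are no test of the set. ACGTG was present for 2 of 5 genes that rose, 4 of 6 that fell and 12 of 18 without a call. The 7 windows of called genes that touch no annotated exon (GENCODE M21) are printed 5′ to 3′ on the gene's strand, ending at the base before the start, with the matches to either word in capitals (CACGT and CACGC where the match is on the other strand), to show that such words stand before genes that moved in opposite directions. Hk2 (chr6:82774455-82774704, minus strand) and Pdk1 (chr2:71872974-71873223, plus strand) rose before the length and GC correction. After it both lost their calls, with log2 fold changes of 0.47 and -0.064. Hk3 (chr13:55021386-55021635, minus strand), Eno1 (chr4:150236458-150236707, plus strand), P4ha1 (chr10:59323046-59323295, plus strand) and Ldha fell, the last with an upstream start (chr7:46845554-46845803) and a downstream start (chr7:46846832-46847081), both on the plus strand.
Hk2: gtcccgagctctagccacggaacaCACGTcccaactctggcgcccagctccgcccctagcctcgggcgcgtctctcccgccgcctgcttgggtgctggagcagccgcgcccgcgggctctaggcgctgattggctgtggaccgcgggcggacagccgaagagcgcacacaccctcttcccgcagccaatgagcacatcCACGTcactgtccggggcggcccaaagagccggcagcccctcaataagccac
Pdk1: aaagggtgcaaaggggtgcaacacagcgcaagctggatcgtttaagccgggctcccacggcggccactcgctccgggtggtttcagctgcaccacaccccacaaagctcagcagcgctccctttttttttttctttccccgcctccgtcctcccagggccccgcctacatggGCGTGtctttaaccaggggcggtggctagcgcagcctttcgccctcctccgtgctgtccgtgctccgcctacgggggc
Hk3: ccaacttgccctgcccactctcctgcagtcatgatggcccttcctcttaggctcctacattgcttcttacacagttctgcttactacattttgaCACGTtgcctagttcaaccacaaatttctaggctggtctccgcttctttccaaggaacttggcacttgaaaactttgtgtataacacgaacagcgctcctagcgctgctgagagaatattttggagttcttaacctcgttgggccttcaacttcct
Eno1: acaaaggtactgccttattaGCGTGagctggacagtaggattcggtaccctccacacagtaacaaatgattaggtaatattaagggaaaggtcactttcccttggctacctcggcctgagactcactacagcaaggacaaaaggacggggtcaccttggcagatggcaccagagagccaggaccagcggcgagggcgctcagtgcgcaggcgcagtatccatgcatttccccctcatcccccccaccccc
P4ha1: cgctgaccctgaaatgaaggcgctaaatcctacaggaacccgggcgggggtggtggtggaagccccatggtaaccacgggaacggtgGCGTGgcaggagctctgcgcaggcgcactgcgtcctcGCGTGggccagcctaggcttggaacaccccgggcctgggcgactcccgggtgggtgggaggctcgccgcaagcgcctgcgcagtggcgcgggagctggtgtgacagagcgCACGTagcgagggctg
Ldha upstream start: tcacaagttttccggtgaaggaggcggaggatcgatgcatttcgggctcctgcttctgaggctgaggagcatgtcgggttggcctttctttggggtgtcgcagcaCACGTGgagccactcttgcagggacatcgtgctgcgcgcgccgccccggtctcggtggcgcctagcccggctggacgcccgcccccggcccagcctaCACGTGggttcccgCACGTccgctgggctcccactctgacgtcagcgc
Ldha downstream start: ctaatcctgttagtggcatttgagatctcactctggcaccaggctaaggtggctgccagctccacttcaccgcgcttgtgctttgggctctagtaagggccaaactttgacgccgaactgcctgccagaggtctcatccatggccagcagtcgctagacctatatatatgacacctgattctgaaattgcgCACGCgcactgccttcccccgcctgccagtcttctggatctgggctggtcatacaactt
Hk2 carries 2 ACGTG matches, beginning 226 and 52 bases before the start, and Hk3 carries 1, beginning 156 bases before. The upstream window of Ldha has 3 ACGTG matches, of which 2 are the palindrome CACGTG, and the downstream window a single GCGTG match. P4ha1 has 2 GCGTG matches and 1 ACGTG match 16 bases before its start. A match is a description of the letters and no evidence of binding.

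At the first step of glycolysis, Hk2 rose and Hk3 fell. Hk2, a hexokinase that binds mitochondria and is inducible in many cells, was at 183, 235 and 227 CPM after APAP against 113 CPM. All 3 APAP libraries were above the control, and the first was the lowest of them. Its log2 fold change was 0.93 (SE 0.17, adjusted p = 0.00789), and 0.47 (adjusted p = 0.0714) once corrected for length and GC content. Hk3, the isoform typical of myeloid cells, moved the other way, from 556 CPM in the control to 381, 317 and 298 CPM. Every APAP library was below the control for Hk3 (-0.74, SE 0.15, adjusted p = 0.0114, and 0.0557 without the second APAP library). Hk1, the broadly expressed isoform, was at 96.4, 96.9 and 85.1 CPM against 112 CPM (-0.27, SE 0.11, adjusted p = 0.0887), and it passed once corrected for length and GC content (-0.49, adjusted p = 0.0196). Leaving out the first APAP library also made it pass (adjusted p = 0.0345).

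Per length, Hk3 stayed the main hexokinase transcript in every library. Its share of the summed hexokinase CPM per kb was 67.1%, 59.2% and 59.4% after APAP and 77.7% in the control. The Hk2 share was 18.8%, 25.6% and 26.4% against 9.19%, a mean of 23.6% ± 4.2 (SD, n = 3), and the Hk1 share 14.2%, 15.1% and 14.2% against 13.1%. The Hk2 to Hk3 ratio per kb was 0.28, 0.43 and 0.44 against 0.12. A comparison of 3 libraries with 1 cannot reach an exact permutation p of 0.05 for a single value, so these shares carry no test. The difference between the log2 fold changes of Hk2 and Hk3 was 1.68 and, corrected for length and GC content, 1.33; it was not tested. Summed over the 3 isoforms, hexokinase stood at 177, 166 and 156 CPM per kb after APAP and 222 CPM per kb in the control.

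**Figure D3:**
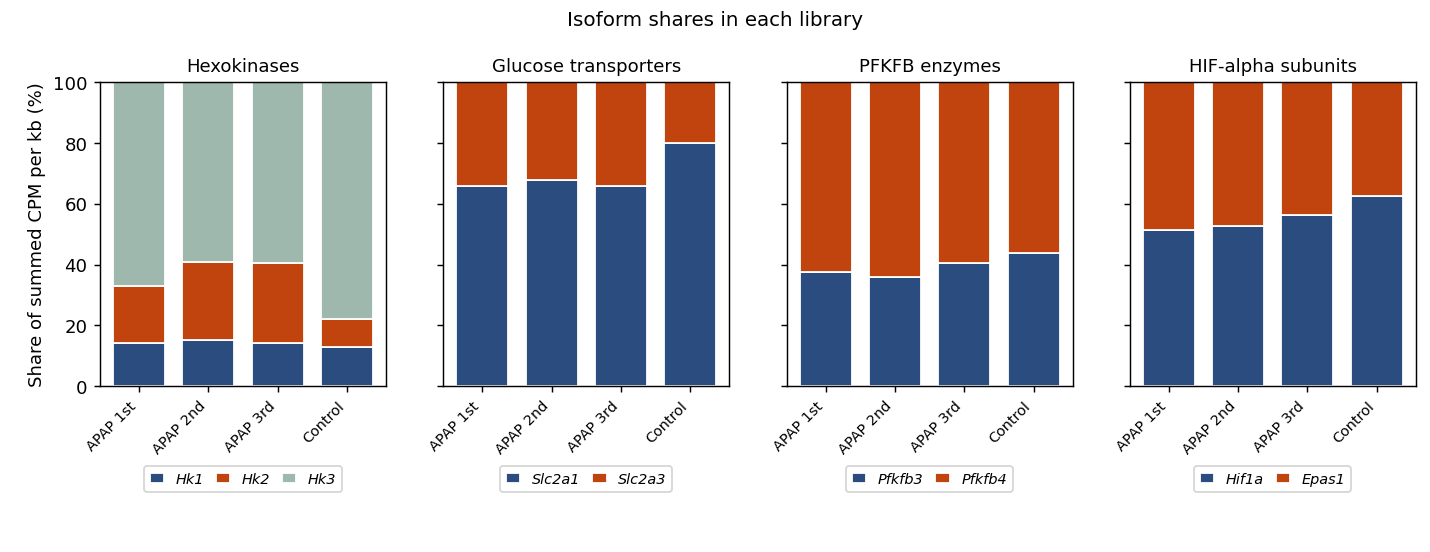
Share of each isoform in the summed CPM per kb of its step, in percent, for hexokinases, glucose transporters, PFKFB enzymes and HIF-alpha subunits, with 1 bar per library. The Hk2 share lies between 18.8% and 26.4% in the APAP libraries and at 9.19% in the control, and the Slc2a3 share between 32.1% and 34.2% against 20.0%.

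Among the carriers of glucose and lactate, only Slc2a3 passed the test. This gene, the high-affinity carrier known from neurons and leukocytes, rose from 9.95 CPM in the control to 16.7, 16.6 and 15.6 CPM, with no overlap (0.71, SE 0.14, adjusted p = 0.00984). This call held in every alternative other than the test against a 2-fold change, narrowly without the second APAP library (adjusted p = 0.0499). Slc2a1, the carrier of basal uptake and a classic HIF target, was at 26.5, 28.8 and 24.8 CPM against 32.7 CPM. Its log2 fold change of -0.29 (SE 0.12) did not pass with an adjusted p of 0.1, while the value corrected for length and GC content did (-0.41, adjusted p = 0.0468). Per kb the 2 glucose carriers together stood at 12.3 ± 0.736 CPM (SD, n = 3) after APAP against 12.5 CPM, and the control lay among the APAP libraries. The Slc2a3 to Slc2a1 ratio was 0.52, 0.47 and 0.52 against 0.25. Slc16a3, the exporter of lactate, was at 23.4, 19.4 and 16.6 CPM against 15.5 CPM (0.35, SE 0.21, adjusted p = 0.219).

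The next steps, from glucose phosphate to the triose phosphates, gave no calls. Gpi1, which turns glucose phosphate into fructose phosphate, was at 419.5 to 448 CPM after APAP and 508 CPM in the control (-0.21, adjusted p = 0.126). Phosphofructokinase summed to 38.5, 36.9 and 36.8 CPM per kb against 36.2 CPM per kb. The liver-type Pfkl made up 49.1% to 54.1% of that sum after APAP and 54.2% in the control, the platelet-type Pfkp 35.2% to 39.4% and 36.8%, and the muscle-type Pfkm 10.7% to 11.4% and 8.97%. None of these 3 passed, with log2 fold changes of -0.02, 0.07 and 0.34. Aldoa, the main aldolase of most tissues and the most abundant member per kb in every library, was at 755, 714 and 594 CPM against 782 CPM (-0.19, SE 0.15, adjusted p = 0.354). Aldoc, known from brain, was at 5.80 to 8.51 CPM against 6.32 CPM.

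Among the 8 enzyme genes from triose phosphate to lactate, Ldha, Eno1 and Tpi1 fell and Eno2 rose. Ldha, which makes lactate from pyruvate, had the largest fall of any member before the length and GC correction: it stood at 317, 248 and 246 CPM after APAP against 527 CPM. The groups did not overlap (-0.96, SE 0.16, adjusted p = 0.00622), and adjusted p ran from 2.43e-06 to 0.034 over the alternatives other than the 2-fold test. Eno1, the widely expressed enolase, was at 384, 341 and 314 CPM against 527 CPM (-0.61, SE 0.13, adjusted p = 0.0142, and 0.0682 without the second APAP library). Tpi1, which interconverts the 2 triose phosphates, was at 149.9, 114 and 108 CPM against 199.9 CPM (-0.69, SE 0.19, adjusted p = 0.0294). Its adjusted p was 0.093 when the second APAP library was left out and 0.168 once corrected for length and GC content. Eno2, the neuronal enolase, had 12, 7 and 17 counts after APAP against 0. Its APAP mean was 3.29-fold above a floor of 3 control counts, which covers counting error only. Having no control reads, Eno2 passed the count filter through the APAP libraries alone. Its call (adjusted p = 0.037) was lost whichever APAP library was left out (adjusted p = 0.0511 to 0.0541).

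Gapdh, Pgk1, Pgam1 and Pkm spread widely among the APAP libraries and gave no call. Gapdh, the dehydrogenase that yields the first reducing equivalents, was at 144, 102 and 90.6 CPM against 155 CPM (-0.47, SE 0.25, adjusted p = 0.17). Pgk1, which makes the first ATP of the pathway, was at 161, 111 and 97.3 CPM against 136 CPM, so that the control lay among the APAP libraries (-0.14, adjusted p = 0.692). Without the first APAP library both passed as lower (Gapdh -0.69, adjusted p = 0.000911, and Pgk1 -0.38, adjusted p = 0.0138). Pgam1, the mutase before enolase, stood above the control in all APAP libraries, at 146, 98.5 and 89.5 CPM against 80.9 CPM (0.46, SE 0.28, adjusted p = 0.223, and 0.041 without the third). Pkm, the pyruvate kinase that makes the last ATP, was at 1015, 807 and 606 CPM against 786 CPM (0.04, SE 0.27, adjusted p = 0.912).

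Without Eno2, all 7 of these enzymes (Tpi1, Gapdh, Pgk1, Pgam1, Eno1, Pkm and Ldha, a grouping made after their values were seen) were highest in the first APAP library and lowest in the third. That pattern held for 11 of all 17 enzymes and for 21% of all genes tested. The median ratio of the highest to the lowest APAP library was 1.59 over the 7 genes and 1.26 over all genes tested. Summed over the 17 enzymes, the APAP libraries held 4307, 3781 and 3349 CPM and the control 4628 CPM. The summed neutrophil markers were also highest in the first library and lowest in the third (398, 308 and 215 CPM), and Csf3r, the receptor of granulocyte colony-stimulating factor, made up most of that sum at 231, 199 and 153 CPM. Retnlg, at 4.52, 10.5 and 7.32 CPM, and the scarce Camp, Ngp and Ltf did not follow that order. Sums of macrophage markers ran in the opposite order (20247, 24302 and 25467 CPM). So did those of endothelial (964, 1251 and 1372 CPM) and plasmacytoid dendritic cell markers (184, 201 and 213 CPM). Individual genes did not all follow these sums. The macrophage marker Cd68 kept the order of the enzymes (1377, 1142 and 1107 CPM), and Lyz2 and Itgam followed neither order. Nor did the endothelial Kdr, Clec4g, Lyve1 and Eng. Tcf4 held most of the plasmacytoid dendritic cell sum (109, 128 and 128 CPM). Of the 8 genes in that sum, only Pacsin1 followed its order. The other lists followed neither order. The part of any of these cells in the enzyme levels was not tested. Several of these genes have near-identical copies in the genome, and how reads shared with a copy were counted is not given in the sources used here. The listed copies held fewer reads than their parents. Eno1b, at 34.5 to 43.2 CPM after APAP against 60.7 CPM, had a log2 fold change of -0.65 (adjusted p = 0.0136). Without a call, Pgam1-ps2 was at 0.49, Gapdh-ps15 at -0.51, Pgk1-rs7 at -0.06 and Ldha-ps2 at -0.47. Levels of Gapdh, Pgk1, Pgam1, Eno1 and Ldha are uncertain for that reason.

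**Figure D4:**
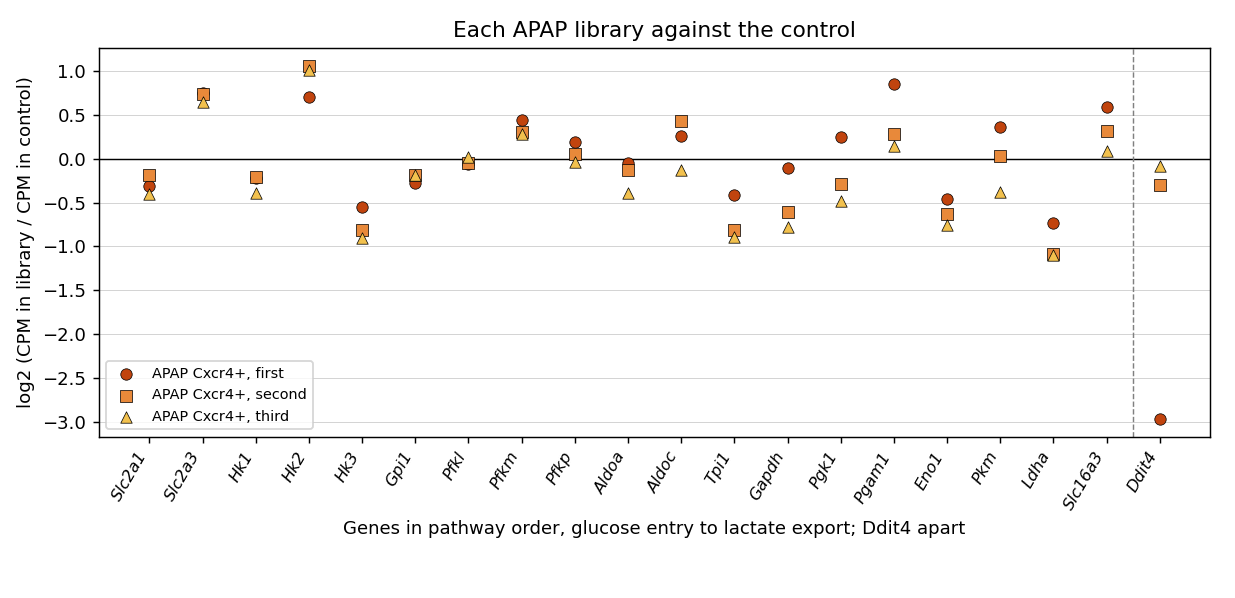
Level of the glycolytic enzymes and transporters in the 3 APAP libraries relative to the control, as log2 of the CPM ratio, in pathway order from glucose entry to lactate export, with Ddit4 apart and Eno2, at 0 in the control, left out. At each plotted gene from Tpi1 to Ldha the first library (circles) lies above the other two, while its Ddit4 level of 18.9 CPM lies far below the 120.0 and 139 CPM of the others.

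All 3 members that regulate flux, Pfkfb3, Pfkfb4 and Pdk1, were higher before the length and GC correction, with 25.4% of all genes tested called higher. After it Pfkfb4 alone kept its call, with 17.6% of all genes called higher. Pfkfb3 and Pfkfb4 make the sugar phosphate that activates phosphofructokinase. Pfkfb4 rose from 31.1 CPM to 51.3, 56.7 and 46.6 CPM (0.73, SE 0.14, adjusted p = 0.00948), and its call held in the alternatives other than the 2-fold test. Pfkfb3 rose from 32.3 CPM to 40.8, 42.0 and 42.2 CPM (0.37, SE 0.09, adjusted p = 0.0252). Pdk1, the kinase that shuts pyruvate out of the mitochondrial citrate cycle, rose from 29.4 CPM to 38.2, 39.0 and 37.6 CPM (0.38, SE 0.10, adjusted p = 0.0244). The control lay below all APAP libraries for each of these 3 genes, as it did for 45.7% of all genes tested. Corrected for length and GC content, Pfkfb4 was at 0.57 (adjusted p = 0.0269), Pfkfb3 at 0.011 (adjusted p = 0.934) and Pdk1 at -0.064 (adjusted p = 0.622). The calls of Pfkfb3 and Pdk1 were also lost when the second APAP library was left out (adjusted p = 0.0988 and 0.0964).

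Of the 2 HIF-alpha transcripts, Epas1 rose and Hif1a gave no call; the difference between them was not tested. Epas1, which encodes the HIF-2 alpha subunit, rose from 40.1 CPM in the control to 70.6, 64.1 and 66.5 CPM (0.74, SE 0.10, adjusted p = 0.00357), and its corrected value was 0.28 (adjusted p = 0.076). Hif1a was at 63.6, 61.2 and 73.0 CPM against 57.1 CPM, above the control in every library but without a call (0.21, SE 0.13, adjusted p = 0.219). Per kb, Epas1 made up 48.7%, 47.3% and 43.8% of the pair after APAP and 37.5% in the control; HIF-alpha is controlled mainly as a protein, which these data do not measure. Egln1, the main hydroxylase that marks HIF-alpha for decay, fell from 51.8 CPM to 37.7, 43.2 and 38.9 CPM (-0.38, SE 0.11, adjusted p = 0.0381). Leaving out either the second or the third APAP library ended this call (adjusted p = 0.0619 and 0.072), and the length and GC correction kept it (adjusted p = 0.0151). Egln3, a hydroxylase that HIF itself induces, was low, at 1.57, 1.12 and 0.85 CPM against 0.67 CPM (adjusted p = 0.205).

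Of the 6 hypoxia-inducible targets, 1 rose, 1 fell and 4 gave no call, so 33.3% were called, with 44.3% of all genes tested. Ndrg1, a stress-responsive gene used as a hypoxia marker, showed the largest rise of the members with control reads, from 5.81 CPM to 17.5, 14.1 and 12.2 CPM (1.33, SE 0.25, adjusted p = 0.00898). Its call held in the alternatives other than the 2-fold test, with values of 1.17 to 1.46. P4ha1, the catalytic subunit of the prolyl hydroxylase that stabilises collagen, fell from 236 CPM to 111, 131 and 151 CPM (-0.85, SE 0.17, adjusted p = 0.0105), with a corrected value of -1.14 (adjusted p = 0.0065). Bnip3, a mitophagy receptor strongly induced by HIF in many cells, was at 4.44, 5.32 and 5.09 CPM against 4.36 CPM, and its relative Bnip3l at 114, 111 and 105 CPM against 104 CPM. Ankrd37 was at 0.78 to 1.21 CPM against 1.27 CPM. Ddit4, an inhibitor of the growth kinase mTOR, stood at 18.9, 120.0 and 139 CPM after APAP against 148 CPM, so the first library lay far below the other two. The 7.38-fold range among the APAP libraries was the widest of any member (-0.67, SE 0.90, adjusted p = 0.57, and -0.19 without the first library).

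The rest of the pathway was followed through lists of genes named for their role in it. Of 40 tested genes for other glycolytic isoforms and the fate of pyruvate, 4 were higher and 5 lower (22.5%, with 44.3% of all genes tested). Ldhb, the lactate dehydrogenase subunit known to favour lactate use, rose from 4.14 CPM to 22.4, 24.3 and 19.1 CPM (2.40, SE 0.20, adjusted p = 0.00119). Per kb its share of Ldha plus Ldhb was 8.74%, 11.7% and 9.49% after APAP and 1.05% in the control. B and T cell markers, which rose in the same libraries, mark cells that are known to express Ldhb; their part was not tested. Mpc2, a subunit of the mitochondrial pyruvate carrier, fell from 41.5 CPM to 23.2, 21.7 and 23.4 CPM (-0.86, adjusted p = 0.00249). Pfkfb2, a relative of Pfkfb3, rose from 3.81 CPM to 7.66, 8.10 and 7.08 CPM (adjusted p = 0.0096). The lysosomal sugar carrier Slc2a6 and the glycogen phosphorylase Pygb fell by 1.39 and 0.49 (adjusted p = 0.0184 and 0.0243, and 0.0598 for both when the second APAP library was left out). Eno4 was at 0 counts in the control and 0.60, 0.43 and 0.27 CPM after APAP. Its APAP mean was 6.48-fold above a floor of 3 control counts, and it passed the count filter through the APAP libraries alone.

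Of 38 tested genes on the list of other hypoxia genes, 11 were higher and 10 lower (55.3%, with 44.3% of all genes tested), so this list also split. Rora, a nuclear receptor, rose from 2.74 CPM to 10.6, 11.9 and 11.6 CPM (2.06, SE 0.18, adjusted p = 0.00133). Rsbn1 and Zfp395 rose by 1.31 and 0.72 (adjusted p = 0.0028 and 0.00319). Hilpda, which blocks lipid breakdown in hypoxic cells, fell from 20.5 CPM to 8.64, 9.42 and 8.69 CPM (-1.20, SE 0.13, adjusted p = 0.0021). The mitochondrial genes Fam162a and Higd1a fell by 1.62 and 1.55 (adjusted p = 0.00237 and 0.0024). Picked after their values were seen, the vascular growth factor Vegfa was at 3.02, 2.14 and 1.81 CPM against 0.45 CPM (2.38, adjusted p = 0.00996), and Egln2, the remaining EGLN hydroxylase, fell by 0.68 (adjusted p = 0.00445). Also picked in that way were 3 collagen-modifying relatives of P4ha1. P4ha2 and Plod1 fell by 0.97 and 0.47 (adjusted p = 0.00388 and 0.0203), the latter not without the second APAP library (adjusted p = 0.0971). P4hb, the partner subunit of the prolyl hydroxylases, was at -0.31 (adjusted p = 0.195, and 0.00758 when the first APAP library was left out). Collagen-modifying genes of this list did not all fall. Plod2, Lox and Loxl2, also picked after their values were seen, were called higher (adjusted p = 0.0207, 0.00604 and 0.0185). Loxl2 was at 2.33, 1.64 and 2.99 CPM against 0.58 CPM. Plod2 and Lox had no reads in the control and passed the count filter through the APAP libraries alone.

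Of 10 pentose phosphate pathway genes, which draw on glucose phosphate to make reducing power and ribose, 2 were higher and 3 lower (50%, with 44.3% of all genes tested). Pgls, the lactonase of the oxidative branch, fell from 89.1 CPM to between 48.7 and 51.1 CPM (-0.83, SE 0.08, adjusted p = 0.0017), and Prps1 and Rpia fell by 0.76 and 0.46 (adjusted p = 0.0351 and 0.0491). H6pd and Prps2 rose by 0.62 and 0.53 (adjusted p = 0.00904 and 0.0199). Taldo1 was at -0.33 without a call (adjusted p = 0.0929, and 0.0245 when the first APAP library was left out). Leaving out the second ended the calls of Prps1, Prps2 and Rpia (adjusted p = 0.0742 to 0.123). Corrected for length and GC content, Pgls kept its call (-0.43, adjusted p = 0.0162), and none of the other 4 did (adjusted p = 0.0535 to 0.268).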

How the data were processed

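Messenger RNA libraries (Tecan universal plus mRNA-seq, per the labels) of 3 APAP Cxcr4+ samples and 1 control were analysed. The deposited values are raw read counts per Ensembl gene. HISAT2, Subread and build mm39 are named in the submitters' processing notes; no source used here gives their versions, the annotation, the strand setting or how shared reads were handled. Of 29247 gene IDs, 28926 (98.9%) matched a symbol. Aldoa has 2 IDs, and the one with more reads was used. Genes passing filterByExpr (minimum count 10, minimum total 15) were fitted with TMM factors and edgeR 4.0.16 (R 4.3.3) quasi-likelihood F tests without covariates. P-values were Benjamini-Hochberg adjusted over 18715 genes and called at 0.05. The 2 residual degrees of freedom come from the APAP libraries alone, so the test takes their spread for the control too. On counts simulated for this comparison (17966 genes), the rate of recovery was 54.5% (of 66) at a 2-fold change, 80.3% (of 61) at 4-fold and 91.8% (of 61) at 8-fold, with 4 false calls among 17778 unaltered genes. The simulation gave the control the spread fitted to the APAP libraries, changed only a small part of the genes and held no length trend. Its false calls therefore do not measure those of the real comparison. Alternatives used DESeq2 1.42.0 and limma 3.58.1. Lengths are those of the principal GENCODE M21 transcript, and the length and GC trend was a loess fit (span 0.3) entered as an offset. The members and lists were chosen with earlier results of these data known. All 33 members are accounted for; from each other pathway list the 6 genes with the smallest p-values are named, with Cxcr4, and genes outside this rule are marked. Some genes of the lists are not reported here.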

Additional observations from a re-analysis of the deposited data

How the results depend on the processing

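DESeq2 size factors, upper-quartile factors, limma-voom, and leaving out mitochondrial and ribosomal protein genes or the hepatocyte markers changed no member's call. The DESeq2 Wald test and the absence of a count filter each lost 1 of the 14 calls, that of Egln1. A test against a 2-fold change called 0 of 33 members (0 higher, 0 lower, 0 of 17 enzymes, 0 of 6 hypoxia targets), and over all genes 1379 in place of 8295, with 1099 higher and 280 lower. A filter of 5 CPM in 1 library left 3097 genes higher, in place of 4758, of 10959 tested. The length and GC correction left 4 members higher in place of 8, and turned Pdk1 from 0.38 to -0.064 (log2); whether part of that trend is biological was not tested. Leaving out 1 APAP library gave 7 to 16 called members (5 to 8 higher, 2 to 9 lower), 2 to 8 called enzymes and 2 called hypoxia targets. Over all genes it gave 5001 to 9380 calls, with 2979 to 5195 higher and 2022 to 4185 lower, and the lowest of each came without the second library. The mean Hk2 share of hexokinase was 22.2% to 26.0% when 1 library was left out, and 33.7% with counts not divided by length. Of the 14 called members, 5 kept their call under all alternatives but the 2-fold test (Ldha, Slc2a3, Pfkfb4, Ndrg1 and P4ha1). The causes of these differences were not tested. No paired analysis was possible because there was a single control library.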
